A study of Mus musculus with 6 samples.

Results

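Endothelial tip cells lead a growing vessel sprout, and 6 genes linked to that cell state were followed in mouse lung: Esm1, Apln, Aplnr, Dll4, Kcne3 and Unc5b. They were chosen by name, with earlier results of these data known, and all 6 were found among the 22911 genes that a probe could be matched to. All 6 were also among the 16413 genes bright enough to be tested. The lungs came from male C57BL6 mice, 10 weeks old, that had been starved for 16 h and then given LPS, the bacterial endotoxin, at 20 mg per kg into the peritoneum. Control mice received saline 3 h and 24 h after LPS, and treated mice received recombinant human thrombomodulin (rhTM), a soluble form of an endothelial anticoagulant protein, at the same times. At 30 h after LPS the lungs of 3 mice a group gave RNA, with 1 array per mouse. Both groups carried LPS and starvation, and no lung without LPS was on the arrays, so the comparison is of rhTM with saline under endotoxaemia and holds no measure of LPS itself.

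Sprouting is set off by VEGF, which acts on endothelial cells and turns the foremost of them into tip cells. Tip cells display the Notch ligand Dll4, and Notch signalling in their neighbours holds those cells back as stalk cells. Esm1 (endocan) is a secreted proteoglycan made by endothelium and induced by VEGF. Apelin, the product of Apln, is a secreted peptide, and its receptor, Aplnr, is carried by neighbouring endothelial cells. Unc5b is a receptor for netrin guidance cues on the endothelial surface, and Kcne3 is a small accessory subunit of potassium channels. In the mouse lung Apln also marks the capillary cells specialised for gas exchange, together with Car4 and Ednrb, while Aplnr belongs to the general capillary cells.

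The study also measured Esm1 by PCR with its own primer pair, which is shown because it defines the stretch of Esm1 transcript amplified there. By that PCR the paper reported significantly higher Esm1 expression in rhTM-treated mice than in control mice. It also reported increased Esm1 from these arrays, and the most endothelial cells staining for the protein in rhTM-treated mice. PCR values are not analysed here, and both primers are 20 bases long.
Esm1 forward primer: cgaggaggatgattttggtg
Esm1 reverse primer: ctgtcacatatgcccgactg

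The array was a 1-colour Agilent design, on which the brightness of a DNA spot follows the amount of matching transcript. Each value below is a signal divided by the 75th percentile of all probes of its array, so a value of 1 is a spot at that percentile, and values of different genes are not compared with each other because probes differ in efficiency. Raw 75th percentiles lay between 681 and 839 signal units. All 7 probes of the 6 genes, each a single spot, were well above background wherever they gave a value. Spots placed several times on an array varied by a median of 6.83% to 8.69%. RNA of whole lung cannot tell fewer cells of a type from less RNA per cell.

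The scanner output and a value table that the authors deposited for the same arrays disagree about a pair of samples. The table holds, under saline replicate 1, the values that the scanner output gives for rhTM replicate 2, and the reverse, with 99.9% of probes equal within 0.1% after the exchange. Labels and methods do not settle which is right. Scanner output was taken as deposited, and the difference of each gene is also given by the table and, except for Kcne3, without both arrays. Saline replicate 1 and rhTM replicate 3 were on slide 2, scanned in a run of its own, and the other 4 arrays were on slide 1. The slope of the spike-in controls was 0.826 and out of the scanner's range on saline replicate 1, and 1.07 to 1.09 on the others.

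Mean log2 signal was higher with rhTM for 3 of the 6 tip cell genes and lower for the other 3. None passed limma's test after Benjamini-Hochberg adjustment across all genes, and none separated the groups, the unadjusted p from limma running from 0.331 for Esm1 to 0.882 for Apln. The background was the same for calls: 0% of 16413 genes were called higher and 0% lower, while 304 genes had an unadjusted p under 0.05 in limma. The 3 rhTM values were all above the 3 saline values for 2.72% of all genes, and all below for 2.61%. The median log2 difference was 0.04 over the 6 genes and -0.0024 over all genes. With the assignment of the value table, 5 of the 6 genes had a higher mean in rhTM lungs, and the median was 0.09 against -0.04 over all genes. In that table no gene was called either, while 8.56% of genes were wholly above and 13.3% wholly below.

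Esm1 spanned a 2.85-fold range over the 6 arrays. Its signal was 1.82, 1.44 and 2.02 times the 75th percentile in saline replicates 1, 2 and 3, and 4.11, 1.51 and 1.89 times in rhTM replicates 1, 2 and 3. A single rhTM lung stood high, the other rhTM lungs lay inside the saline range, and the groups overlapped. Mean signal was 2.50 ± 1.40 (SD, n = 3) in rhTM lungs and 1.76 ± 0.292 (SD, n = 3) in saline lungs. The log2 difference was 0.38 with a standard error of 0.37, which is 1.31-fold with a 95% interval from 0.713 to 2.39 (limma adjusted p = 1.00, exact two-sided permutation p = 0.6, where 0.1 is the smallest possible). Without rhTM replicate 1 the log2 difference was -0.04.

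By the value table, mean Esm1 signal was 2.60 ± 1.30 (SD, n = 3) in rhTM lungs and 1.66 ± 0.314 (SD, n = 3) in saline lungs, a log2 difference of 0.56 with limma adjusted p = 0.462. Without both exchanged arrays the difference was 0.71, with limma adjusted p = 0.702 and 2 arrays a side. One combination of settings called Esm1. With the table's assignment and slide as a block term, the log2 difference was 1.33 with a standard error of 0.21 (limma adjusted p = 0.0436). In that fit 1.16% of genes were called higher and 1.47% lower. Slide 2 holds no saline lung by the table, so the value sets rhTM replicate 1 alone against the 3 saline lungs. Over all lungs of the table the Esm1 groups overlapped (exact two-sided permutation p = 0.3). Within slides by the scanner output, the log2 difference was 0.55 on slide 1, with 2 arrays a side, and 0.06 on slide 2, with 1 a side.

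**Figure D1:**
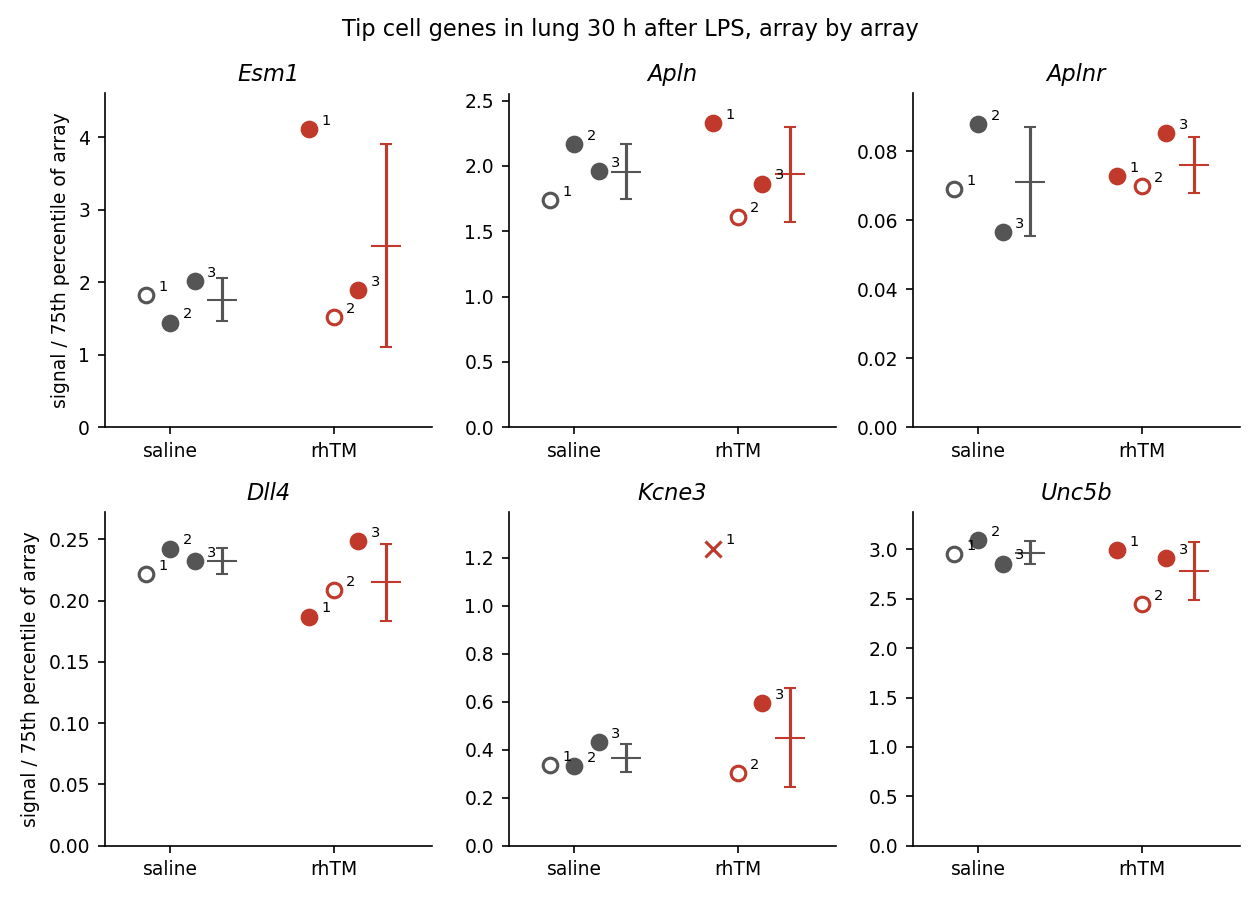
Signal of the 6 tip cell genes on each array, in multiples of the 75th percentile of the array (linear axes from 0), for saline and rhTM lungs 30 h after LPS. Small numbers are replicates, open circles are the pair of arrays that the value table exchanges, bars are the mean ± SD, and the cross is a Kcne3 spot marked as non-uniform and left out of the mean; Esm1 stands at 4.11 on rhTM replicate 1 and between 1.44 and 2.02 elsewhere.

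Apln, the ligand of the apelin pair, had the smallest difference of the 6 genes. Saline replicates 1, 2 and 3 gave 1.74, 2.17 and 1.96 times the 75th percentile, and rhTM replicates 1, 2 and 3 gave 2.33, 1.61 and 1.86 times. Both the highest and the lowest lung were rhTM lungs, so the rhTM values enclosed the saline values. Group means were 1.93 ± 0.363 (SD, n = 3) with rhTM and 1.96 ± 0.213 (SD, n = 3) with saline. The log2 difference was -0.03 with a standard error of 0.17 and a 95% interval from -0.44 to 0.38 (limma adjusted p = 1.00, exact two-sided permutation p = 0.9). It was 0.05 by the value table and 0.02 without both exchanged arrays, so its sign was not settled. Within slide 1 it was -0.09 and within slide 2 it was 0.10.

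Aplnr, the receptor, was dim on every array, at 44.7 to 71.1 signal units before scaling. Its signal was 0.0691, 0.0880 and 0.0565 times the 75th percentile in saline replicates 1, 2 and 3, and 0.0728, 0.0699 and 0.0853 times in rhTM replicates 1, 2 and 3. All 3 rhTM lungs lay inside the saline range. The scanner's own error estimate for a single Aplnr spot was 11.1% to 14.8% of its signal, against about 10.0% for Esm1. Group means were 0.0760 ± 0.00822 (SD, n = 3) with rhTM and 0.0712 ± 0.0158 (SD, n = 3) with saline. The log2 difference was 0.11 with a standard error of 0.19 and a 95% interval from -0.34 to 0.56 (limma adjusted p = 1.00, exact two-sided permutation p = 0.6). By the table it was 0.10, and without both exchanged arrays 0.16. Within slides it was 0.02 on slide 1 and 0.31 on slide 2.

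Dll4, the Notch ligand of tip cells, was steady among saline lungs, at 0.221, 0.242 and 0.232 times the 75th percentile in replicates 1, 2 and 3. The rhTM lungs gave 0.187, 0.209 and 0.249 times. Of the rhTM lungs, 2 lay below all saline lungs and the remaining one lay above them all. Mean signal was 0.215 ± 0.0314 (SD, n = 3) with rhTM and 0.232 ± 0.0105 (SD, n = 3) with saline. This gave a log2 difference of -0.12 with a standard error of 0.14 and a 95% interval from -0.46 to 0.22 (limma adjusted p = 1.00, exact two-sided permutation p = 0.5). The value was -0.06 by the value table and -0.14 without both exchanged arrays. It was -0.26 within slide 1 and 0.17 within slide 2.

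Unc5b, the netrin receptor, varied least over the 6 arrays. Its brighter probe gave 2.95, 3.095 and 2.86 times the 75th percentile in saline replicates 1, 2 and 3, and 2.99, 2.44 and 2.91 times in rhTM replicates 1, 2 and 3. Only rhTM replicate 2, one of the exchanged arrays, lay outside the saline range. Mean signal was 2.78 ± 0.295 (SD, n = 3) with rhTM and 2.97 ± 0.120 (SD, n = 3) with saline. The log2 difference was -0.10 with a standard error of 0.13 and a 95% interval from -0.41 to 0.21 (limma adjusted p = 1.00, exact two-sided permutation p = 0.5). A second, dimmer probe of Unc5b also had rhTM replicate 2 lowest, at 0.747 times the 75th percentile against 0.823 to 0.993 elsewhere, and gave a log2 difference of -0.04 with a standard error of 0.16. By the value table, which moves that lung to the saline group, the brighter probe differed by 0.08, and without both exchanged arrays by -0.01. Within slide 1 the log2 difference was -0.14, and within slide 2 it was -0.02.

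Kcne3, the channel subunit, was measured on 5 of the 6 arrays. Saline replicates 1, 2 and 3 gave 0.335, 0.331 and 0.431 times the 75th percentile, and rhTM replicates 2 and 3 gave 0.304 and 0.595 times. One rhTM lung was the lowest and the other the highest of the 5. Its only spot on rhTM replicate 1 was marked non-uniform by the scanner software and treated as missing. That spot read 1.24 times the 75th percentile, above all others, with an error estimate of 18.1% of its signal. Kcne3 spanned a 1.96-fold range without that spot and a 4.07-fold range with it. Mean signal was 0.449 ± 0.206 (SD, n = 2) with rhTM and 0.366 ± 0.0565 (SD, n = 3) with saline, a log2 difference of 0.23 with a standard error of 0.31 (limma adjusted p = 1.00). The 95% interval ran from -0.54 to 0.99, and the exact two-sided permutation p was 0.7. With the marked spot kept, a choice made after it was seen, the log2 difference was 0.74 with a standard error of 0.47 (limma adjusted p = 1.00), and 0.84 by the value table (limma adjusted p = 0.430). Without the marked spot the table gave 0.34. The difference was -0.31 on slide 1, with 1 rhTM array against 2, and 0.83 on slide 2, with 1 a side. With slide as a block term, limma adjusted p-values of the 6 genes were 0.925 to 0.981 by the scanner output.

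**Figure D2:**
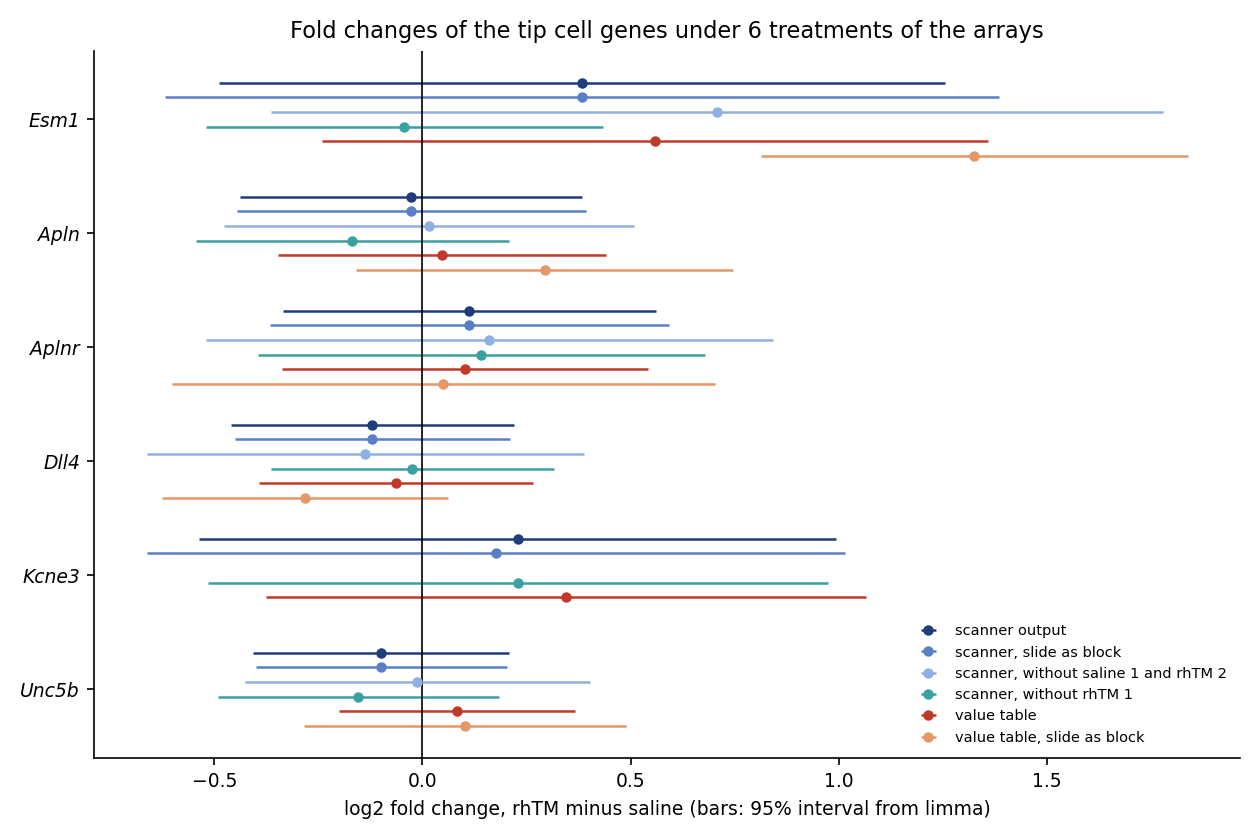
Log2 fold change of each tip cell gene, rhTM minus saline, under 6 treatments of the same arrays; points are estimates and horizontal bars are 95% intervals from limma. Esm1 under the value table with slide as a block term, at 1.33, is the only interval that leaves out 0, and Kcne3 could not be fitted in that setting or without both exchanged arrays.

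The intervals set how far the data reach. On the fold scale the 95% interval was 0.738 to 1.31 for Apln, 0.792 to 1.48 for Aplnr, 0.727 to 1.16 for Dll4 and 0.754 to 1.16 for Unc5b. For these 4 genes a change of a factor of 2 lay outside the interval in either direction. The interval of Esm1 reached 2.39-fold, and over the settings run its upper limit lay between 1.35-fold, without rhTM replicate 1, and 3.58-fold, by the table with slide as a block term. It was 2.57-fold by the table alone and 3.43-fold without both exchanged arrays. That of Kcne3 ran from 0.689 to 1.99-fold, and to 3.66-fold with the marked spot kept. A value that missed the threshold does not show that the groups were alike.

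The spread over arrays differed widely among the 6 genes. The SD of the log2 signal over 6 arrays was 0.55 for Esm1, larger than that of 93.0% of all genes tested. For Kcne3, over 5 arrays, it was larger than that of 84.4%, for Aplnr 57.7%, for Apln 46.9%, for Dll4 30.2% and for Unc5b 17.3%. Among rhTM lungs alone the SD of Esm1 was 0.76 against a median of 0.22 over all genes, and among saline lungs 0.25 against a median of 0.16. The array rhTM replicate 1 also stood apart for other genes. There 114 of 16360 genes, Esm1 among them, lay at least 1 log2 unit above every other array, against 11 to 38 genes on each of the other 5 arrays. On the same array 141 genes lay at least 1 log2 unit below every other, against 2 to 11. The part of that array's general difference in the Esm1 value was not tested.

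Genes with the array pattern most like Esm1 were found by centring each gene on its mean over 6 arrays and taking the root mean square log2 difference from Esm1, as a description of 6 arrays with no test. The 5 nearest of 16359 genes were 1700124L16Rik at 0.080, 4930596I21Rik at 0.086, Fgl1 at 0.086, Gm19705 at 0.090 and Muc13 at 0.10. Fgl1 is a secreted fibrinogen-like protein and Muc13 an epithelial membrane mucin. All 5 were high on rhTM replicate 1, between 0.92 and 1.18 log2 units above their own means, and lowest or next to lowest on saline replicate 2. The other tip cell genes were far from Esm1 in this order. Apln came nearest, in place 2881 with a difference of 0.41, followed by Unc5b in place 5675, Aplnr in place 10625 and Dll4 in place 11656. Apln and Unc5b were closest to each other among the tip cell genes, with a difference of 0.12, and Unc5b took place 390 in the order for Apln. A flat gene would lie at 0.50 from Esm1, 0.18 from Apln and 0.11 from Unc5b, the root mean square of each about its own mean. Genes of small spread therefore lie near each other on this measure even without a shared pattern. Kcne3 was left out of this order because it had 5 values.

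**Figure D3:**
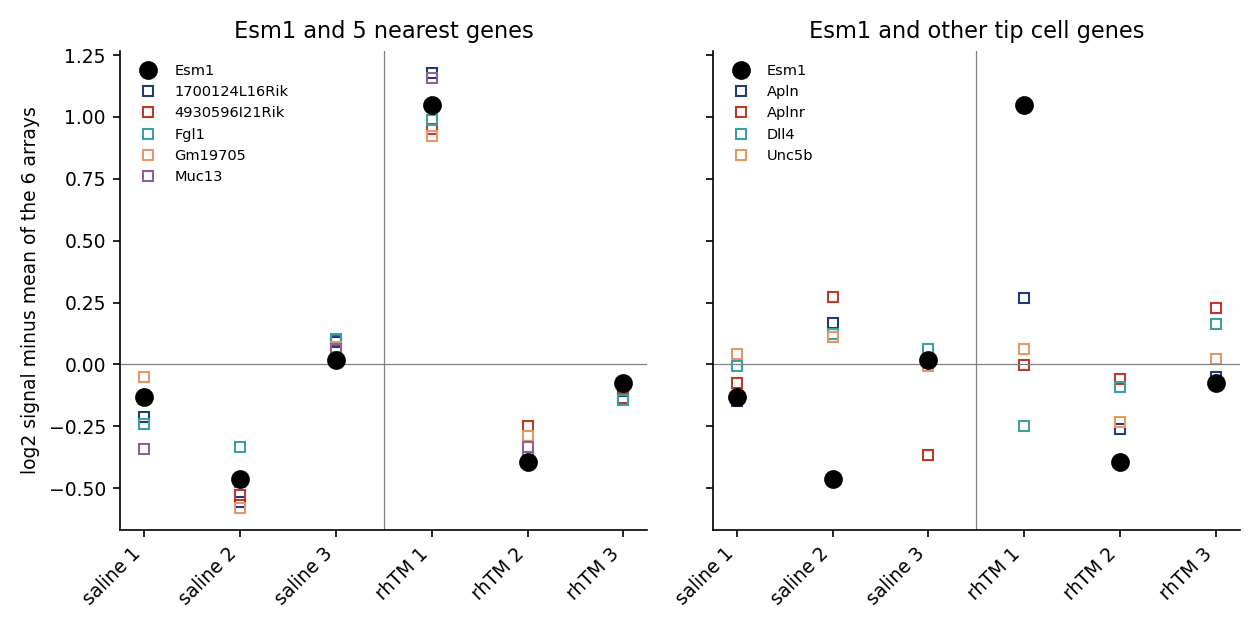
Log2 signal minus the mean of the 6 arrays, for Esm1 (filled circles) with the 5 genes nearest to it (left, squares) and with 4 other tip cell genes (right, squares), by array. At rhTM replicate 1 Esm1 and its nearest genes lie about 1 log2 unit above their means, while Apln lies at 0.27, Unc5b at 0.061 and Dll4 at -0.25.

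Each tip cell gene was then set against endothelial markers, as its log2 signal minus the mean log2 signal of 12 pan-endothelial markers on the same array. Those markers averaged 3.30, 3.46 and 3.41 log2 units in saline replicates 1, 2 and 3, and 3.08, 3.43 and 3.25 in rhTM replicates 1, 2 and 3. The marker mean was thus lowest on the array where Esm1 was highest. Over all genes the median difference relative to the markers was 0.13. For Esm1, rhTM minus saline relative to the markers was 0.52 (exact two-sided permutation p = 0.4), but 0.0028 without rhTM replicate 1 and 0.90 without rhTM replicate 2. It was 0.11 for Apln (exact permutation p = 0.8) and 0.25 for Aplnr (exact permutation p = 0.4). It was 0.01 for Dll4 (exact permutation p = 0.8), 0.27 for Kcne3 (exact permutation p = 0.7) and 0.04 for Unc5b (exact permutation p = 0.9). Groups overlapped for all 6, while over all genes 5.59% were wholly above and 0.966% wholly below on this measure. By the value table the values were 0.78 for Esm1, 0.27 for Apln, 0.33 for Aplnr, 0.16 for Dll4, 0.50 for Kcne3 and 0.31 for Unc5b. With that assignment the marker mean itself separated the groups, at 3.08 to 3.30 in rhTM and 3.41 to 3.46 in saline lungs, a difference of -0.22. Relative to the markers, rhTM values were then all above saline values for Dll4 and for Unc5b, as they were for 27.9% of all genes (1.75% were all below), and the median over all genes was 0.18. The signals of Dll4 and Unc5b themselves overlapped between groups, with log2 differences of -0.06 and 0.08. Against 7 general capillary markers by the scanner output, Esm1, Kcne3 and Aplnr were at 0.37, 0.15 and 0.10, and Apln, Dll4 and Unc5b at -0.04, -0.14 and -0.11.

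The genes around the 6 were described by 6 lists with 99 genes, of which 91 were tested. None was called, 48 were higher in rhTM lungs and the median log2 difference was 0.03. In 4 of the 91 genes, or 4.40%, the rhTM values were all above the saline values, and in 3, or 3.30%, below, beside 2.72% and 2.61% of all genes. The 4 above were Nid1, Heyl, Kcne2 and Hif1a, and the 3 below were Lfng, Ntn1 and Rgma, named after their values were seen except for Ntn1. With the value table's assignment, 13 genes (14.3%) were above and 10 (11.0%) below, beside 8.56% and 13.3% of all genes. On rhTM replicate 1, 27 of the 91 genes (29.7%) had their highest value, beside 30.5% of all genes, and 35 (38.5%) had their lowest, beside 25.4% of all genes.

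Among 20 other tip cell and sprouting genes, 10 were higher and 10 lower, with a median log2 difference of 0.0007. Angpt2, a Tie2 ligand that tip cells release, was 0.80 on the log2 scale in rhTM replicate 1 and at most 0.16 elsewhere, the same single array as Esm1, and its difference was 0.22, or 0.0070 with the exchange. Plvap, a protein of endothelial diaphragms, differed by -0.26 (-0.33 with the exchange), and the chemokine receptor Cxcr4 by 0.14 (0.18 with the exchange). Pgf, a VEGF family ligand, differed by 0.04. Pdgfb, which recruits pericytes, was 3.11 in rhTM replicate 1 against 4.28 to 4.98 elsewhere, with a difference of -0.53 and a standard error of 0.45. Nid1, a basement membrane protein, had the smallest unadjusted limma p of the list, 0.011, with a difference of 0.52, or 0.17 with the exchange.

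Dll4 works through Notch, and of 24 Notch pathway genes tested 15 were higher and 9 lower, with a median of 0.06. The receptors Notch1 and Notch4 differed by 0.52 and -0.07, with standard errors of 0.32 and 0.13, and by 0.70 and -0.16 with the exchange. For Jag1, the ligand that competes with Dll4 at endothelial Notch, the difference was 0.22. Of the Notch targets, Hey1 differed by -0.11, Efnb2 by 0.15 and Nrarp by 0.40, and with the exchange by -0.13, 0.06 and 0.62. Nrarp, a feedback inhibitor, was highest in rhTM replicate 1 at -0.68, against -1.94 to -1.34 elsewhere. Hey2 did not pass the brightness filter. Notch3, Rbpj and Hes1 had their 2 highest values on the arrays of slide 2. Notch3 was 5.59 in saline replicate 1 and 5.66 in rhTM replicate 3 against 4.45 to 4.81 on slide 1, and its difference was 0.18 by the scanner and 0.78 with the exchange. The part of the slide in that difference was not tested.

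Around Unc5b, 18 netrin and axon guidance genes were tested, 7 of them higher and 11 lower, with a median of -0.06. Its ligand Ntn1 was 1.02, 1.11 and 0.94 in saline replicates 1, 2 and 3 and 0.53, 0.74 and 0.89 in rhTM replicates 1, 2 and 3 on the log2 scale. All 3 rhTM lungs lay below the saline lungs, for a log2 difference of -0.30 with a standard error of 0.14 (limma adjusted p = 1.00). By the value table the Ntn1 groups overlapped and the difference was -0.11. Ntn4, another netrin, differed by 0.17, or 0.45 with the exchange. Robo4 and Flrt2, membrane proteins that bind Unc5b, differed by 0.06 and -0.02, and both signs turned with the exchange, to -0.08 and 0.11.

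The apelin list holds G protein subunits, arrestins and endothelial targets of the receptor, and 6 of its 9 tested genes were higher, with a median of 0.10. Apela, the second ligand of Aplnr, had no matched probe. Kcne3 belongs to a family of subunits that pair with channels such as Kcnq1, and of 7 genes tested from that list 4 were higher, with a median of 0.15, or 0.34 with the exchange. Kcnq1 differed by 0.23, or 0.34 with the exchange. Kcne4, a related subunit, was 0.45 in rhTM replicate 1 against -2.17 to -1.20 elsewhere, with a difference of 0.95 and a standard error of 0.55.

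The VEGF inputs to tip cells gave 6 higher and 7 lower of 13 genes, with a median of -0.03. Vegfa itself differed by -0.08, or -0.19 with the exchange. Its receptors Kdr and Flt1 differed by 0.19 and 0.15, and both signs turned with the exchange, to -0.02 and -0.13. Hif1a, the hypoxia factor upstream of Vegfa, had every rhTM lung above every saline lung, with 4.49, 3.998 and 4.31 in rhTM replicates 1, 2 and 3 and 3.73, 3.82 and 3.69 in saline replicates 1, 2 and 3. Its difference was 0.52 with a standard error of 0.16 (limma adjusted p = 1.00), and 0.34 by the value table, where the groups overlapped.

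**Figure D4:**
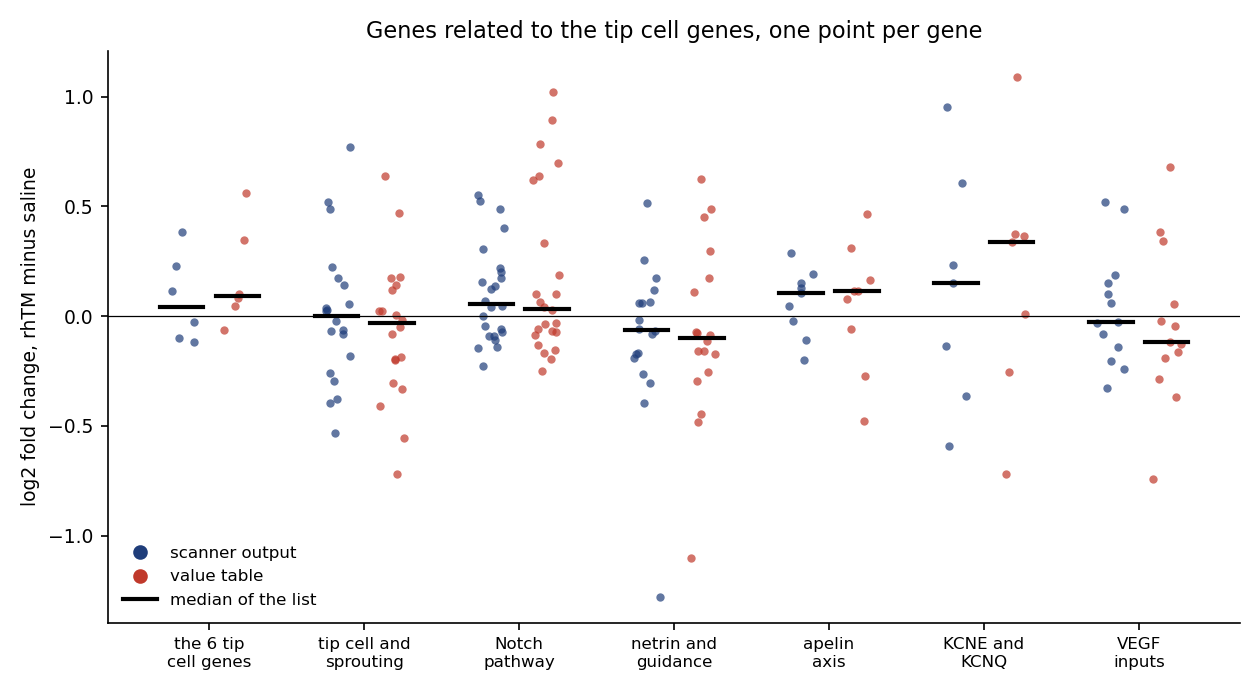
Log2 fold change, rhTM minus saline, of the 6 tip cell genes and of the genes in 6 related lists, 1 point per gene; blue is the scanner output, red the value table, and black bars are medians. List medians lie between -0.06 and 0.15 by the scanner output, and the KCNE and KCNQ list moves to 0.34 by the table.

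Lung identity and cell content were read from marker lists. All 12 pan-endothelial markers were tested, with a summed signal of 308 to 349 times the 75th percentile in saline lungs and 339 to 346 times in rhTM lungs. Of these, 5 were higher with rhTM, and the median log2 difference was -0.06, or -0.26 with the exchange. Pecam1 differed by -0.43 and Cdh5 by 0.13, and with the exchange by -0.64 and 0.02. All 7 markers of gas exchange capillary cells were tested, and 5 were higher by the scanner output but 1 with the exchange, with medians of 0.07 and -0.08. Car4 was at 0.02 and Ednrb at 0.40, or -0.13 and 0.24 with the exchange. Their summed signal was 104 to 110 in saline and 99.2 to 120 in rhTM lungs. Of 7 general capillary markers 3 were higher under either assignment, with a median of -0.12, or -0.14 with the exchange. Gpihbp1 was at 0.45, or 0.02 with the exchange, and Plvap was at -0.26, as given above. Their summed signals were 171 to 195 in saline and 150 to 204 in rhTM lungs. Neutrophil markers summed to 956 to 1099 in saline and 970 to 1241 in rhTM lungs, highest in rhTM replicate 1, with 7 of 9 higher. Their mean log2 signal there was 5.81 against 5.30 to 5.45 on the other arrays. Erythroid markers, 4 tested of 7 listed, averaged 3.88 log2 units in rhTM replicate 1 against 2.78 to 3.13 elsewhere. Their summed signal was 519 to 667 in saline and 493 to 658 in rhTM lungs, highest in saline replicate 1. Lymphatic endothelial markers summed to 118 in rhTM replicate 1 against 71.6 to 81.5 on the other arrays. Of the 6, only Lyve1 had its highest value there, at 6.47 log2 units against 5.41 to 5.84 elsewhere. Ccl21a was lowest there, at 1.49 against 1.67 to 2.20. Both were named after their values were seen. With rhTM, 4 of 6 were higher and the median was 0.01, or 3 of 6 and 0.18 with the exchange. All 7 alveolar type 2 markers were lower with rhTM, with a median of -0.12, but 4 of 7 were higher with the exchange, with a median of 0.096. Their summed signal was 993 to 1462 in saline and 906 to 1275 in rhTM lungs, lowest in rhTM replicate 1. None of these marker lists had a called gene, and the part of these cells in the Esm1 value was not tested.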

How the data were processed

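RNA from lungs of 6 mice, 3 given saline and 3 given rhTM, was measured on 1-colour Agilent arrays. The authors deposited, for each array, the scanner software's processed signal, an intensity corrected for background within the array and not scaled between arrays, and a table of the same intensities averaged over spots; the submitters' processing notes name Agilent Feature Extraction 9.1. From the deposited intensities, control spots were left out, outlier-marked spots were set to missing (398 of 56605 probes on some array), spots of a probe were averaged, and the log2 signal minus the 75th percentile of the array was used. Probe accessions were matched to RefSeq genes of assembly GRCm38.p6 for names only (32994 probes, 22911 genes), because the array was annotated on another build. Probes well above background throughout 1 or both groups were kept, and the brightest stood for its gene, which left 16413 genes.

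Groups were compared with limma 3.58.1 in R 4.3.3, as lmFit followed by eBayes, with p-values adjusted across all genes by the Benjamini-Hochberg method at 0.05, and by exact two-sided permutation. The fit was tested on simulated data. The number of arrays limits the precision. The tip cell genes, related lists and named genes were chosen with earlier results of these data known. The text names the 6 genes, 22 known partners, 5 endothelial markers and the 5 genes most like Esm1; others are said to be chosen after their values were seen or stand as slide examples (Notch3, Rbpj, Hes1). Alternatives were normexp background correction, quantile normalization, other scaling, the authors' table, other filters, slide or replicate number as block term, averaged probes, each array left out, the methods' t-test and, added after the data were seen, outlier-marked spots kept.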

Additional observations from a re-analysis of the deposited data

How the results depend on the processing

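No tip cell gene was called by limma under any setting run except Esm1 with the value table and slide as block term (log2 difference 1.33), a fit that rests on rhTM replicate 1 as its only rhTM lung beside saline lungs of the same slide, with overlapping groups and an exact permutation p of 0.3. Kcne3 gave no value in that fit, with probes required on all 6 arrays, without both exchanged arrays, or without rhTM replicate 2 or 3. By the value table the sign turned for Apln (0.047) and Unc5b (0.083), also with outlier-marked spots kept (0.047 and 0.083) and with slide as block term (0.29 and 0.10), and Apln was at 0.015 without both exchanged arrays. Leaving out 1 array at a time, the scanner output gave -0.043 to 0.68 for Esm1, with the lowest value without rhTM replicate 1, -0.17 to 0.10 for Apln, -0.042 to 0.28 for Aplnr, -0.23 to -0.02 for Dll4, 0.16 to 0.35 for Kcne3 and -0.15 to -0.01 for Unc5b. The value table gave 0.18 to 0.76 for Esm1, -0.08 to 0.14 for Apln, -0.056 to 0.26 for Aplnr, -0.16 to 0.046 for Dll4, 0.24 to 0.49 for Kcne3 and -0.01 to 0.16 for Unc5b. Among these, Apln was at 0.14, 0.071, 0.13 and 0.084 without saline replicates 2 and 3 and rhTM replicates 2 and 3, and Unc5b at 0.16, 0.10, 0.073, 0.083 and 0.093 without saline replicates 2 and 3 and rhTM replicates 1, 2 and 3. Relative to endothelial markers, capillary markers gave -0.043 for Apln, -0.14 for Dll4 and -0.11 for Unc5b, and leaving out 1 array gave 0.0028 to 0.90 for Esm1, 0.08 to 0.39 for Aplnr, -0.12 to 0.32 for Apln, -0.10 to 0.12 for Dll4, -0.30 to 0.85 for Kcne3, where both ends rest on 1 rhTM lung, and -0.11 to 0.21 for Unc5b. Over all genes, limma called 189 higher and 241 lower by the value table with slide as block term. Without rhTM replicate 1 the value table called 424 higher and 170 lower, none of them a tip cell gene, and rhTM lungs were then all on slide 2 and saline lungs all on slide 1, so slide and group cannot be told apart. Leaving out any other array, or any array of the scanner output, called 0 genes. The methods' t-test called 0 genes after adjustment, 337 below an unadjusted p of 0.05, and a single gene, no tip cell gene, at the fold and p thresholds of the methods. Same-numbered mice were not treated as pairs, and the labels state no pairing. Correlations of their deviations from group means were -0.30, 0.44 and -0.45. The largest correlation, 0.64, joined saline replicate 1 and rhTM replicate 3, the arrays of slide 2, so these values cannot settle a pairing. A replicate block left 0 genes called and 377 at an unadjusted p under 0.05, against 304 without it, with Esm1 at 0.38, Apln at -0.03, Aplnr at 0.11, Dll4 at -0.12, Kcne3 at 0.17 and Unc5b at -0.10. The cause of these differences was not tested.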
